A study of Homo sapiens with 12 samples.

Results

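Accessible chromatin was examined at 10 inflammatory genes of HT1080 cells, an established human fibrosarcoma line: the CXC chemokine genes CXCL1, CXCL2, CXCL3, CXCL5, CXCL6 and CXCL8 of chromosome 4, and the cytokine genes IL6, IL1A, IL1B and LIF. The genes were taken by name, and a summit was counted for a gene when it lay inside it or within 20 kb of it in the RefSeq annotation of GRCh38. All 10 genes were found among 20033 protein-coding genes, and 36 of the 188019 summits of the peak list were counted for them. Accessibility was measured by ATAC-seq, in which a transposase cuts open chromatin, after 48 h of migration through type-I collagen of rat tail (0.3, 1 or 1.7 mg/mL), with 4 libraries per concentration and 12 in all. GM6001, a broad inhibitor of matrix metalloproteinases, was present at 20 µM in all 3 groups, those in the least dense collagen included. The gels were digested with collagenase and the cells were frozen and thawed before transposition, and a single cell line was used.

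The deposited peak list was pooled over the series and named no library or concentration. No value below is therefore a comparison between collagen concentrations, none has a replicate spread, no test was made, and the depth per library is unknown. The values are the authors' fold enrichment at each summit, a ratio of the signal to the local background, and their q-value, given as −log10. A pileup, the number of fragments or extended reads that overlap the summit, was recovered from the enrichment and the p-value. The genome-wide background was 20.3 overlapping fragments, and a local background above that value is called raised. Over the whole list the median enrichment was 4.27, with quartiles of 2.63 and 6.57, and the median pileup was 101.

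The cell line was checked against marker genes by counting those with a summit within 1000 bp of a start. All 10 mesenchymal genes had one, among them FN1, VIM and CAV1. The counts were 2 of 8 for epithelial genes and 1 of 5 for endothelial genes. Across all protein-coding genes the share was 65.9%. Of the leukocyte genes given here, CD68, CSF1R, CD3E, SPI1 and LCP1 had one, and PTPRC, ITGAM, LYZ and MPO had none. The 2 epithelial genes, EPCAM and KRT18, had enrichments of 2.11 and 1.75. The leukocyte genes CD3E, CD68, SPI1, CSF1R and LCP1 had 14.5, 9.08, 8.44, 5.42 and 4.32, and the median of the mesenchymal genes was 9.53. The leukocyte genes were thus not separated from the mesenchymal ones by enrichment.

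The CXC chemokines encoded here are secreted proteins that attract neutrophils through the receptors CXCR1 and CXCR2. IL-6 and LIF signal through receptors that share the subunit IL6ST (gp130), and IL-1 alpha and IL-1 beta act through IL1R1 with the accessory chain IL1RAP. Their genes are classical targets of NF-kB, often together with AP-1 and C/EBP factors, and are induced by infection, tissue damage and stress. Many tumour lines and senescent cells secrete these proteins without infection.

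Of the 10 genes, 6 had a summit within 1000 bp of their start: CXCL8, CXCL3, CXCL2, IL6, IL1A and IL1B. Across all protein-coding genes the share was 65.9% (13203 of 20033; exact 95% confidence interval 65.2 to 66.6, which covers counting error only), so 6 of 10 lay near the background. CXCL1, CXCL5, CXCL6 and LIF had none. At the 6 open starts the highest enrichment per gene had a median of 5.76, and over all protein-coding genes with a start summit it was 11.9. Each of the 10 genes had at least 1 summit in the gene or within 20 kb, as did 92.7% of protein-coding genes. The number of summits per gene ranged from 1 to 8 with a median of 3.5, and the median over all protein-coding genes was 5. The windows differ in size, since the median length was 3092 bp for these 10 genes and 24130 bp for all protein-coding genes.

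**Figure D1:**
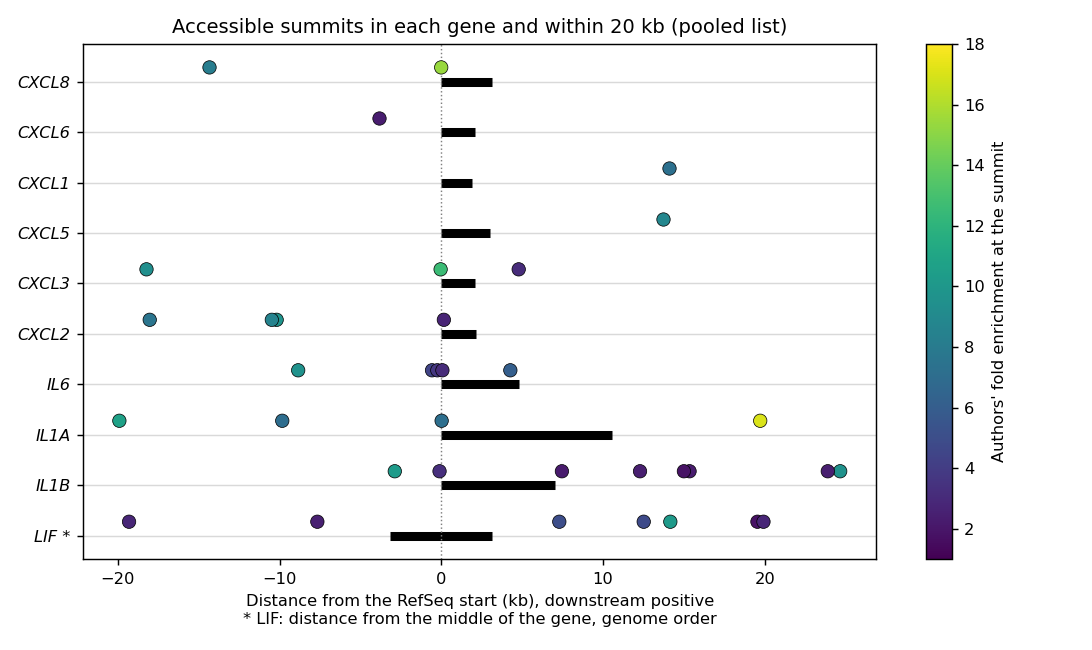
Position of each summit counted for the 10 genes, in kb from the RefSeq start with downstream positive (for LIF, in genome order from the middle of the gene). Black bars are the genes, each circle is 1 summit of the pooled list, and colour gives the authors' fold enrichment. The brightest circles are a summit far downstream of IL1A (17.0) and the summit at the start of CXCL8 (15.4), while the rows of CXCL6, CXCL1 and CXCL5 hold 1 summit each, away from the start.

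Most of the open sites counted around these genes were not at their starts. The windows reach 20 kb beyond each gene and the start zone only 1000 bp to each side, so such a majority need not be particular to these genes. The same split of summits was not made over all protein-coding genes. Of the 36 summits, 8 lay within 1000 bp of a start of the 10 genes, at medians of 4.03 in enrichment and 177 in pileup. Of these 8, 3 came from a single interval at IL6, and with the highest value per gene the medians were 5.76 and 220. For the other 28 the medians were 6.53 and 213. Among the latter, 5 lay within 1000 bp of the start of another gene, or of a gene end where no start was known. They were at CKAP2L, AMANZI and LOC124907871 on chromosome 2, and 2 were at OSM on chromosome 22. For OSM no start was known and the nearer gene end was used, so these 2 may not lie at its start. The other 23 were farther than 1000 bp from every start or gene end taken in this way. The strongest summit was at the gene's own start for 2 of the 10 genes, CXCL8 and CXCL3. It was at the start for 39.4% of the 18577 protein-coding genes with a summit in the same window. For the other 8 of the 10 genes it was elsewhere, among them LIF, for which the gene ends were used. With so few genes the difference from the background share was not tested.

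The promoters of the chromosome 4 genes are shown because related sequences with the same NF-kB match carried different peak calls. The stretches below are the 150 bases before the RefSeq start (GRCh38.p14), 5′ to 3′ on the strand of the gene. Capitals mark matches, on either strand, to the consensus of NF-kB, to AP-1 (TGANTCA), to C/EBP (TTGCNNAA) and to the TATA box (TATAAA). In the CXCL promoters the NF-kB capitals are a pair of matches that overlap by all but 1 base at each side.
CXCL1 (chr4:73869243-73869392, + strand, no start summit): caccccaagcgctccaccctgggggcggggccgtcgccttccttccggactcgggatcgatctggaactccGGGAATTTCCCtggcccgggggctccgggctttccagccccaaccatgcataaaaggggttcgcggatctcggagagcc
CXCL2 (chr4:74099196-74099345, - strand, start summit of enrichment 2.67): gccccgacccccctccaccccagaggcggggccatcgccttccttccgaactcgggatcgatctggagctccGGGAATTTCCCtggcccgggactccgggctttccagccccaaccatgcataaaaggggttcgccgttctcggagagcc
CXCL3 (chr4:74038690-74038839, - strand, start summit of enrichment 12.6): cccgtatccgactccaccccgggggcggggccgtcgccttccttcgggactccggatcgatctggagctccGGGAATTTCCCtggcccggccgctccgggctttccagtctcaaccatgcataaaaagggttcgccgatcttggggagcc
CXCL5 (chr4:73998678-73998827, - strand, no start summit): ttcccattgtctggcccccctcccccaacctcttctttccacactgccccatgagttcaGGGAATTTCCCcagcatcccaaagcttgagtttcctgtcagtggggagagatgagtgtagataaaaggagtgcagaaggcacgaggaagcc
CXCL6 (chr4:73836528-73836677, + strand, no start summit): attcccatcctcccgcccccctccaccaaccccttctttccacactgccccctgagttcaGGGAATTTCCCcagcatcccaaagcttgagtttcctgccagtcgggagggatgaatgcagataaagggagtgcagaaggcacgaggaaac
CXCL8 (chr4:73740419-73740568, + strand, start summit of enrichment 15.4): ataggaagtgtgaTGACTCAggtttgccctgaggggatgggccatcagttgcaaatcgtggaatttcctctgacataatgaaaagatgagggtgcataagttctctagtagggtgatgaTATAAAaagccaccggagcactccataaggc

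CXCL1, CXCL2, CXCL3, CXCL5 and CXCL6 carried the same 11 bases, GGGAATTTCCC, at -79 to -69, -78 to -68, -79 to -69, -91 to -81 and -90 to -80 from the start. Of these 5 genes, CXCL3 and CXCL2 had a start summit, with enrichments of 12.6 and 2.67, and CXCL1, CXCL5 and CXCL6 had none. The intervals of the CXCL3 and CXCL2 summits spanned the NF-kB match, reaching 482 and 140 bases before the start. A match is a description of the letters and not a bound site.

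The 250 bases before the start were identical in 81.4% of aligned positions between CXCL1 and CXCL3, with a longest shared run of 25 bases. The identity was 73.4% between CXCL3 and CXCL2 (longest run 37 bases), 70.1% between CXCL1 and CXCL2 (42 bases) and 85.3% between CXCL5 and CXCL6 (45 bases), the closest pair, neither of which had a start summit. CXCL8 was at most 48.1% identical to any of the other 5, with shared runs of 9 bases. How reads that match more than 1 copy were treated is not given in the sources used here, and its part in these calls was not tested.

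CXCL8, which encodes interleukin-8, the most studied neutrophil attractant of the family, had the highest enrichment at a start among the 10 genes. Its summit lay at 73740559 on chromosome 4 (interval 73740397 to 73740767, 371 bp), 10 bp before the start. The enrichment was 15.4, the −log10 q was 373, and 470 fragments overlapped the summit over a local background of 29.6. Of the 13203 protein-coding genes with a start summit, 80.2% had a lower highest enrichment. The interval spanned an AP-1 match at -137 to -131 and a TATA box match at -31 to -26, both in capitals in the sequence above. No exact match to the NF-kB consensus was found in the window of CXCL8. The stretch above does hold tggaatttcc, which departs from the consensus at its first base only and was therefore not marked. The search thus does not show that CXCL8 lacks an NF-kB site. A second summit 14334 bp upstream, at 73726235, had an enrichment of 8.16 at a pileup of 241. The next summit beyond the 20 kb limit, 35829 bp from the gene, had an enrichment of 11.7 and lay in the long noncoding RNA gene INKILN.

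CXCL3 encodes one of the GRO chemokines, with CXCL1 and CXCL2. Its start summit, at 74038735 and 46 bp before the start, had an enrichment of 12.6 at a pileup of 1256 (−log10 q 883) over a background of 99.1. The enrichment was below that of CXCL8, while the pileup was the highest at any start of the 10 genes and the local background was raised. Among protein-coding genes with a start summit, 55.1% had a lower enrichment. The start of the noncoding gene LOC105377275 lay within 1000 bp of the same summit, so the site cannot be given to CXCL3 alone. Downstream of CXCL3, 4781 bp from the start, a summit at 74033908 had an enrichment of 3.09 at a pileup of 282. Upstream, 18230 bp from the start and near the pseudogene PPBPP2, a summit at 74056919 had an enrichment of 9.39 at a pileup of 218.

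At CXCL2 the order was the opposite, with a weak start and strong sites upstream. The start summit lay 154 bp inside the gene, at 74099041, and had an enrichment of 2.67 at a pileup of 56 (−log10 q 9.04) over the genome-wide background of 20.3. Only 8.35% of protein-coding genes with a start summit had a lower enrichment. An interval of 1245 bp from 74108997 to 74110241 held a pair of summits, 10183 and 10481 bp upstream, with enrichments of 9.81 and 8.62 and pileups of 1022 and 909. The pileup was thus many times that at the start. A further summit, 18030 bp upstream at 74117225 and within the gene MTHFD2L, had an enrichment of 7.61 at a pileup of 208.

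CXCL1, CXCL5 and CXCL6 each had a single summit, none of them inside the gene. The CXCL1 summit was 14074 bp downstream of the start, at 73883467, with an enrichment of 7.22 at a pileup of 153 over the genome-wide background. For CXCL5 the summit at 73984957 was 13720 bp downstream of the start and lay between the platelet chemokine genes PF4 and PPBP, with an enrichment of 8.90 at a pileup of 202. CXCL6 had the weakest of the 3, 3886 bp upstream of the start at 73832792, with an enrichment of 2.35 at a pileup of 49. (−log10 q 6.09) The 6 chemokine genes of the cluster thus fell into 3 with a start summit and 3 without. At a −log10 q of at least 10 the start summit of CXCL2 was lost, which leaves CXCL8 and CXCL3.

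**Figure D2:**
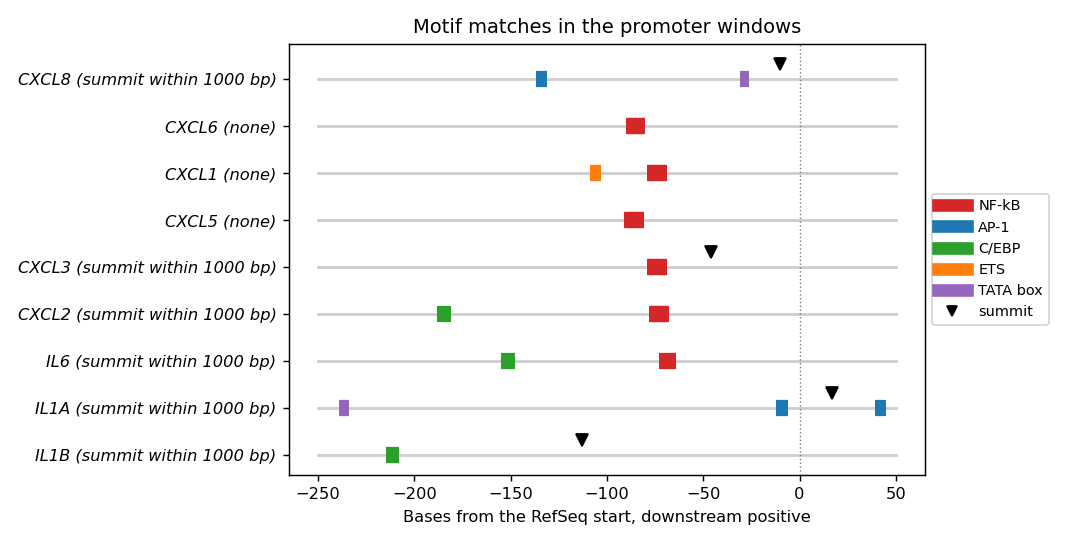
Motif matches on either strand in the promoter windows of 9 genes, from 250 bases before to 50 after the RefSeq start, with triangles for the summits that fall inside the window. The red NF-kB blocks stand at nearly the same place in CXCL6, CXCL1, CXCL5, CXCL3 and CXCL2, and of these 5 rows 1, that of CXCL3, has a summit inside the window.

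Promoter windows were matched by symbol for 9 of the 10 genes, LIF having no entry. Each window was 300 bases long, from 250 before to 50 after the start. NF-kB matches were present in 6 of the 9 windows (the 5 named above and IL6) and in 11.3% of the 35116 RefSeq windows of all genes. AP-1 (TGANTCA) was found in 2, CXCL8 and IL1A, and in 7.71% of all windows. C/EBP (TTGCNNAA) was found in CXCL2, IL6 and IL1B, and in 10.5% of all windows. The TATA box letters (TATAAA) were present in CXCL8 and IL1A, and in 11.5% of all windows, but in IL1A they lay at -239 to -234. An ETS match (CCGGAAG) was present in CXCL1, and in 10.3% of all windows. Neither the CRE (TGACGTCA) nor the TEAD letters (GGAATG) were found in the 9 windows, and these occurred in 1.85% and 14% of all windows. Genes with more than 1 start have a window for each, and the related promoters of the cluster are not independent of one another.

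IL6 and IL1A, whose promoters follow, carried other combinations of the same motifs.
IL6 (chr7:22727050-22727199, + strand): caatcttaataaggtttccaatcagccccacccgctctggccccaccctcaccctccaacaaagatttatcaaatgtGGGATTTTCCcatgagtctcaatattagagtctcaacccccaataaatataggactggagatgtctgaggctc
IL1A (chr2:112784494-112784643, - strand): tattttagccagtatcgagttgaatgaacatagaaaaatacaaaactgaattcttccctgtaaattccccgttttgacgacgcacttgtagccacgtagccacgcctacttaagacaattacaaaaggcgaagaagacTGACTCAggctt
The NF-kB match of IL6 lay at -73 to -64 and a C/EBP match, outside the stretch printed, at -155 to -148. The AP-1 match of IL1A lay at -12 to -6, and another at 39 to 45 after the start. The interval of each start summit spanned these matches, reaching 865 bases before the start of IL6 and 91 before that of IL1A.

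IL6, the cytokine that drives the acute phase response, had a broad and shallow open start. An interval of 1102 bp, from 22726335 to 22727436 on chromosome 7, held 3 summits at -578, -251 and 63 bp from the start, with enrichments of 4.39, 3.67 and 3.08. Their pileups were 194, 160 and 132 over backgrounds of 42.1 to 43.4, so the signal was lower from the upstream summit to the one inside the gene. Of the protein-coding genes with a start summit, 14.9% had a lower enrichment than the highest of these. The antisense gene IL6-AS1 spans all 3 summits, and ATAC-seq does not tell the strands apart. Stronger sites lay on both sides. A summit 8853 bp upstream, at 22718347, had an enrichment of 9.69 at a pileup of 291, and a summit inside the gene, 4264 bp from the start, had 6.08 and 265. The nearest summit beyond the 20 kb limit was 59333 bp from the gene.

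IL1A and IL1B, which encode the alarmin IL-1 alpha and the inflammasome product IL-1 beta, lie next to each other on chromosome 2. The start of IL1A had a summit 17 bp inside the gene, at 112784476, with an enrichment of 7.13 at a pileup of 151 (−log10 q 74.8) over the genome-wide background. The start of IL1B had a summit 113 bp upstream, at 112836892, with an enrichment of 3.28 at a pileup of 246 (−log10 q 53.3) over a raised background of 74.2. IL1A thus had the higher enrichment and IL1B the higher pileup. The shares of genes with a lower start enrichment were 24.5% for IL1A and 10.8% for IL1B.

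The strongest site within 20 kb of IL1A was at the start of another gene. At 112764781, 172 bp from a start of CKAP2L, which encodes a mitotic spindle protein, the enrichment was 17.0 and the pileup 2326, the highest of all 36 summits. The other summits of IL1A were 9837 and 19907 bp upstream of its start, with enrichments of 6.98 and 10.7 and pileups of 181 and 317. The farther of these, just inside the 20 kb limit, was the one farthest from its gene among the 36, and the nearest summit outside the limit on the other side of IL1A, 24012 bp away, had an enrichment of 6.94.

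IL1B had 8 summits, the most of the 10 genes, and 5 of them had an enrichment below 2.5. The strongest, 2880 bp upstream of the start at 112839659, had an enrichment of 10.3 at a pileup of 736. (−log10 q 459.7) It lay 133 bp from the start of the noncoding gene AMANZI. The next was 24656 bp downstream of the start, at 112812123, with an enrichment of 9.67 at a pileup of 379. The weaker summits on the downstream side had enrichments of 1.85 to 2.46 and pileups of 45 to 96. From the lower end of IL1A to the upper end of IL1B, a span of 0.0629 Mb, the list held 7 intervals, or 111.4 per Mb. The whole of chromosome 2 held 27.97 per Mb. A density from 7 intervals in so short a span is imprecise. The median enrichment of the summits was 2.46 in the span and 3.57 on the chromosome.

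LIF, a cytokine of the IL-6 family known for its action on stem cells, had 7 summits and none within 1000 bp of either gene end. The nearest was 4138 bp from the gene, at 30250897 on chromosome 22, with an enrichment of 5.01 at a pileup of 310 over a background of 61.1. The strongest was at 30257761 (interval 30257296 to 30258162), 11002 bp from LIF and 5068 bp from the nearer end of the neighbouring cytokine gene OSM, with an enrichment of 10.2 at a pileup of 1544. (−log10 q 956) Another summit in the same stretch, at 30256116, had an enrichment of 4.84 at a pileup of 776 over a background of 159.5, the highest background of the 36. The remaining summits, 2 on the other side of the gene and 2 at OSM, had enrichments of 1.74 to 2.85. Within 20 kb of LIF the 3 sites with the highest enrichments lay between LIF and OSM, and from position alone they cannot be assigned to either gene. The nearest summit beyond the limit, at 30271024 and 24265 bp from LIF, lay on the far side of OSM and had an enrichment of 13.2, above every summit counted for LIF.

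**Figure D3:**
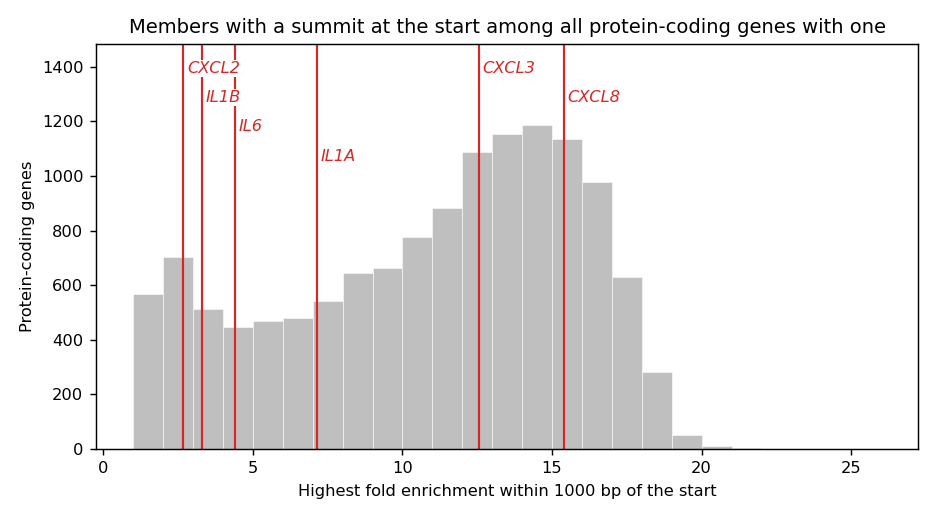
Highest fold enrichment within 1000 bp of the start for the 13203 protein-coding genes that have a summit there (grey bars, 1 enrichment unit wide), with red lines for the 6 inflammatory genes that have one. CXCL2, IL1B, IL6 and IL1A (2.67 to 7.13) stand in the low part of the distribution, CXCL3 (12.6) near its middle and CXCL8 (15.4) in its upper part.

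Enrichment and pileup ordered the sites differently because the local background differed. The background was raised at 32 of the 36 summits (88.9%), compared with 46.97% of all summits of the list and 64.7% when intervals over 10 kb are left out. The 4 at the genome-wide value were those at the starts of CXCL2 and IL1A and the single summits of CXCL1 and CXCL6. Pileups ranged from 45 to 2326 with a median of 205, and enrichments from 1.74 to 17.0 with a median of 5.54. All intervals were short, from 257 to 1287 bp.

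**Figure D4:**
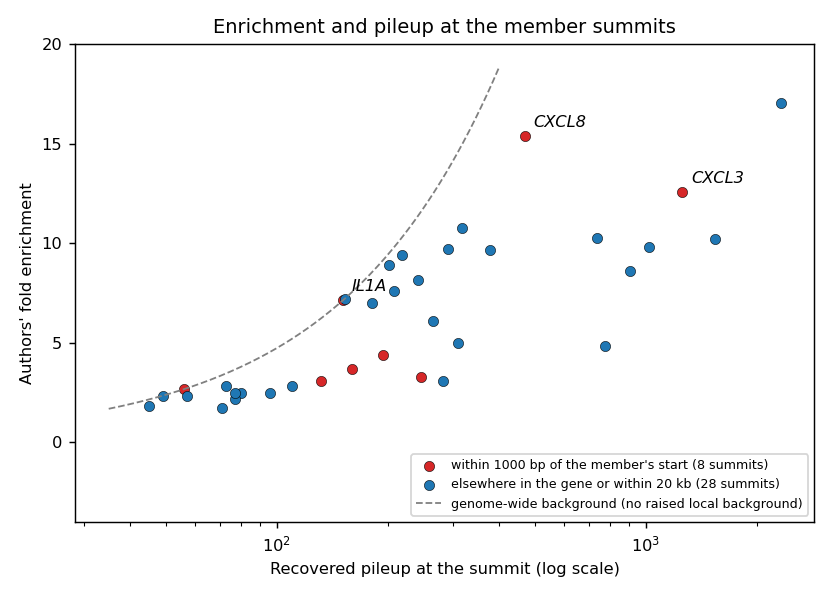
Authors' fold enrichment against recovered pileup (log axis) for the 36 summits, red within 1000 bp of the gene's own start and blue elsewhere; the dashed curve is the enrichment that a pileup gives over the genome-wide background of 20.3. The start of IL1A lies on the curve, whereas that of CXCL3, with a pileup of 1256, lies far to its right.

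Across the cluster, from the start of CXCL8 to the end of CXCL2 (chr4:73740569-74099195), 10 intervals with 1 summit each were present in 0.359 Mb, not counting the CXCL8 summit 10 bp before that span. That is 27.9 intervals per Mb, and the whole of chromosome 4 held 20.5 per Mb. Counted by summits the order was reversed, with 27.9 per Mb in the span and 38.9 per Mb on the chromosome. Other chemokine genes of chromosome 4 had no open start: 0 of 7 (PF4, PF4V1, PPBP, CXCL9, CXCL10, CXCL11 and CXCL13) had a summit within 1000 bp, beside 65.9% of all protein-coding genes. PF4, PF4V1 and PPBP, which encode platelet chemokines, lie between CXCL6 and CXCL5, inside the same cluster. CXCL9, CXCL10 and CXCL11, interferon-induced chemokine genes that lie together elsewhere on the chromosome, had 0 summits between the start of the first and the end of the last. That span was only 0.0348 Mb, so at the 20.5 intervals per Mb of the chromosome a count of 0 says little. The IL-1 family genes beside IL1B were mostly without an open start. IL37, IL36A, IL36B, IL36G, IL36RN and IL1F10 had none. Of the 7, 1 had a start summit (14.3%, beside 65.9% of all protein-coding genes), the receptor antagonist gene IL1RN, with an enrichment of 1.83 at a pileup of 38. Summits were nevertheless present between these starts: the stretch from IL37 to IL1F10 held 9 intervals, or 54.7 per Mb.

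The receptors for these ligands differed among themselves. A start summit was present at 7 of 10 receptor and antagonist genes (70%, near the 65.9% of all protein-coding genes), with a median enrichment of 8.98, beside 11.9 over all open starts. The shared signal transducer IL6ST had the highest value, 14.9 with a pileup of 2552, followed by IL6R with 13.8 and IL1RAP with 11.1. CXCR1 and CXCR2, the receptors of the 6 chemokines, and the decoy receptor IL1R2 had none. In every list, as for LIF, a gene without an entry in the promoter table was measured from the nearer gene end.

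Among genes of NF-kB signalling a start summit was present at 17 of 18 (94.4%, beside 65.9% of all protein-coding genes), with a median enrichment of 13.1 beside 11.9, and MYD88, the adaptor of the IL-1 receptor, was the exception. IRAK4, a kinase of the same pathway, had the highest enrichment, 17.8, followed by NFKBIB with 17.1 and TNFAIP3 with 15.8; the last 2 encode inhibitors of NF-kB signalling. Of 10 genes for other transcription factors that act on these promoters, 9 had a start summit (90%), with a median of 9.47, below the 11.9 of all open starts. STAT3, which transmits IL-6 and LIF signals, had 18.3, JUN had 13.5 and FOSL2 had 10.9, and ATF3 had none. These counts were not tested.

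Among other inflammatory factors, 3 of 9 genes had a start summit (33.3%, beside 65.9% of all protein-coding genes). PTGS2, the inducible prostaglandin synthase, had an enrichment of 9.87, CSF2 of 6.96 and CCL5 of 3.56, and CCL2, CCL7, CCL8, CCL20, CSF3 and TNF had no start summit. Of 5 other IL-6 family cytokines 3 had one (60%, near the share of all genes): CLCF1 had 11.5, IL11 had 7.51 and OSM had 2.84, while CNTF and CTF1 had none. For CCL5, CCL2, CSF3, CLCF1, OSM and CTF1 no start was known and the gene ends were used, so these calls may not concern a start. Of 5 genes for the maturation and release of IL-1, also 3 had one (60%): CAPN1, which encodes a calpain protease, had 13.3, the inflammasome sensor NLRP3 had 10.9 and the adaptor PYCARD had 3.22. CASP1, which encodes the protease that cleaves pro-IL-1 beta, and GSDMD, which encodes the pore-forming gasdermin D, had none. For CASP1 and GSDMD, too, the gene ends were used.

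**Figure D5:**
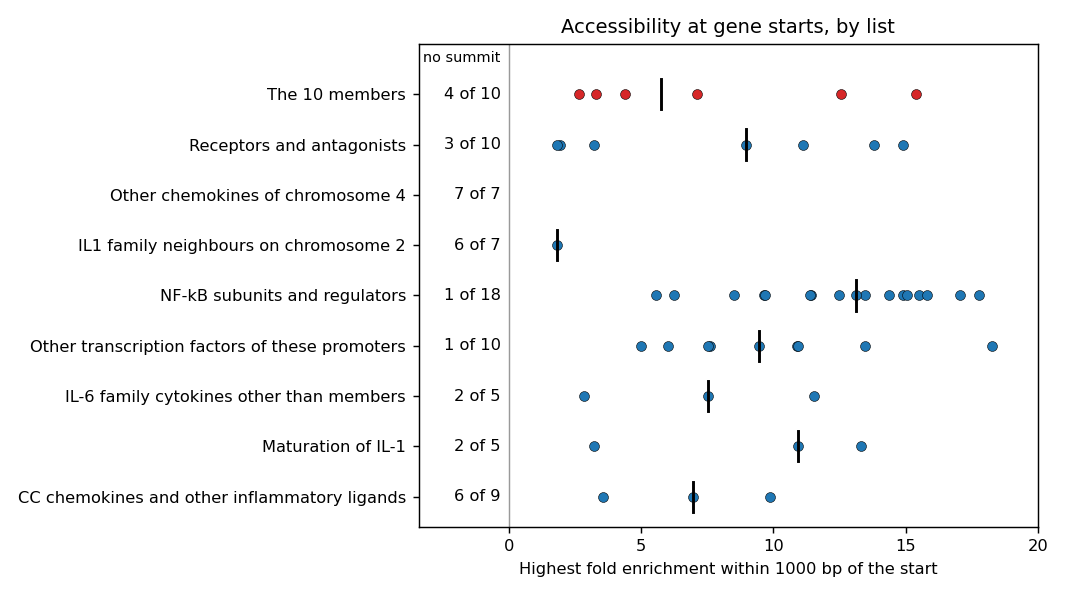
Highest fold enrichment within 1000 bp of the start for each gene of the 10 inflammatory genes (red) and of 8 related lists (blue), with the median of the open genes as a black bar and the number of genes without a summit at the left. The 17 open genes of the NF-kB list lie between 5.57 and 17.8, and all 7 other chemokine genes of chromosome 4 have no start summit. Of all protein-coding genes 65.9% have one.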

How the data were processed

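The series' title and design text describe ATAC-seq of HT1080 cells in 3 collagen concentrations, and 1 peak list of 10 columns was used. Per the submitters' processing notes, fastp 0.20.0, Bowtie2 2.4.3, SAMtools, deepTools 3.5.0 and MACS2 2.2.7.1 were used and the build was hg38; their settings, the read filters and the treatment of duplicates and multiply mapped reads are not given in the sources used here. The list is the authors' pooled one, so the planned fits between concentrations, with or without a block, had no input.

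The deposited fold enrichment (a ratio), −log10 p and −log10 q were used as the authors gave them, and the deposited score, which equalled 10 times the −log10 q, truncated, in 99.8% of lines, was not used further. No line had a −log10 q under 1.30, which is a q-value of 0.0500. The pileup and the local background were solved from enrichment and p, taking enrichment as (pileup + 1)/(background + 1) and p as a Poisson upper tail. On the deposited lines this model gave whole pileups, within 0.05, for 99.96%. The solver was also tested on simulated data.

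RefSeq gene bounds, starts and promoter sequences (GRCh38.p14) came from tables. Starts were known for 15841 protein-coding genes; for 4192, LIF included, the nearer gene end was used. Exon boundaries were not used here. Only genes on autosomes, X and Y, and summits near them, entered the counts per gene. The values over all summits of the list used every line of it, whatever the sequence. All 10 genes are named; list genes are named when among the 3 highest of their list or without a start summit, marker genes were chosen for naming after their values were seen, and neighbours are named by position. A leukocyte marker gene is not reported here. The 10 genes and the lists were chosen with earlier results of these data known. Python 3.11.15, numpy 2.4.6, pandas 2.3.3 and scipy 1.17.1 were used.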

Additional observations from a re-analysis of the deposited data

How the results depend on the processing

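No paired analysis was possible because the pooled list holds no value per library; for the same reason the fits between concentrations, those without single replicates and those with DESeq2 were not run. The 6 genes with a start summit were the same with distances of 500 or 2500 bp, with interval overlap in place of summits and with the strongest summit per interval; a −log10 q of at least 10 left 5, without CXCL2. The 36 summits became 15 in a window of 5 kb, 57 in one of 50 kb, 30 at the stricter q and 30 with 1 summit per interval. The share of protein-coding genes with a start summit, 65.9%, was 60.8% at the stricter q, 67.5% with interval overlap, 65.0% with the strongest summits, 61.4% at 500 bp, 72.3% at 2500 bp and, in an alternative chosen after seeing the data, 67.6% in genes with a promoter window. The median start enrichment of the 6 genes, 5.76, was 7.13 at the stricter q and 5.40 at 500 bp, and their median start pileup was 220 against 768 over all open genes. The median of the strongest summit within 20 kb, 10.0 over the 10 genes, was 10.2 at the stricter q, 6.61 within 5 kb and 11.7 within 50 kb, and in pileup 603. Under each of these settings the medians of the 10 genes were below those of all protein-coding genes. Depth per library is unknown, so a start without a summit may hold signal under the authors' threshold, and the list gives no upper limit for it.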

Other observations

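Within the chemokine cluster, 3 summits lay outside the 20 kb windows of all 6 chemokine genes, in the stretch between CXCL1 and PF4. Of these, the summit at 73917372 was the strongest, with an enrichment of 9.57 at a pileup of 203 over the genome-wide background, and the nearest gene start, of the pseudogene HNRNPA1P55, was 20902 bp away. The other two, at 73902394 and 73965455, had enrichments of 3.61 and 1.97. Beside CXCL2, an inner start of MTHFD2L, a gene of mitochondrial folate metabolism, had an enrichment of 20.1 at a pileup of 2064 at 74157993, above every summit counted for the 10 genes in enrichment. The growth factor genes EPGN and EREG farther along the chromosome, and RASSF6 on the other side of CXCL8, had no summit within 1000 bp of a start.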
